A study of Rattus norvegicus with 8 samples.

Results

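Integrins are cell surface receptors made of an α and a β chain, and they join the cytoskeleton to the matrix or to ligands on other cells. Laminins are basement membrane proteins made of an α, a β and a γ chain, and several integrins bind them. Osteoblasts attach to collagen, fibronectin and RGD-containing bone matrix proteins mainly through β1 and αv integrins. The integrin and laminin subunits on the arrays were chosen by name alone, as the rat probes whose gene name on the array is an integrin α or β chain or a laminin α, β or γ chain. This gave 37 genes, measured by 53 probes on 92 spots, out of 34912 gene names, 45598 probes and 58717 rat spots. Of the 37 genes, 18 encode integrin α chains, 8 encode integrin β chains and 11 encode laminin chains, and all 37 symbols were found in the RefSeq gene table.

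The cells were osteoblast-like cells isolated from the calvaria of Wistar rats 3 to 5 days old, and they are primary cells of mixed origin rather than a line. One group of 4 cultures was left non-irradiated, and the other group of 4 was exposed for 60 s at 20 Hz to an Er:YAG laser, a mid-infrared dental laser, at 3.3 J/cm2 with the medium taken off. All 8 cultures were then kept in osteoinduction medium, and RNA was collected at 6 h. Cy3-labeled cRNA made from 200 ng of total RNA was hybridized to 1 array per culture. The question was which transcripts differed between irradiated and non-irradiated cells, and cultures were numbered 1 to 4 in both groups.

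Values are log2 of the processed spot signal after quantile normalization, and a probe counted as detected on an array when the scanner software placed over 50% of its spots well above background. The median processed signal was 56.2 to 72.6 on the non-irradiated arrays and 56.8 to 84.8 on the irradiated ones. No spot was saturated (0 of 62976 per array). All 8 arrays lay on 1 slide, where columns 1 and 3 held the non-irradiated and columns 2 and 4 the irradiated arrays, and position thus cannot be told apart from irradiation. Of 12 osteoblast markers, 11 were detected on all 4 arrays of a group, and Phex was the exception. Irradiated replicate 2 stood apart: across 26250 probes its deviations from the group mean correlated with those of non-irradiated replicate 1 at r = 0.439 and with those of its own number at r = 0.0542, while the other numbers gave r = 0.571 to 0.749. Probes are not independent replicates, so these correlations are descriptions only. In whole cultures, fewer cells of a type and less RNA per cell cannot be told apart.

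Most results turn on a few probes, and their sequences show which stretch of each transcript was read. Each probe is 60 bases long, is written 5′ to 3′ as on the array, and has the rn4 position and strand that the array gives. For the probe nearest the 3′ end of a gene only the first 30 bases are shown. Whether a probe lies in an exon or an untranslated region is not given in the sources used here. Capitals mark a run of the dinucleotide CA in the first Itgam probe, which sets it apart from the second Itgam probe.
Itgam A_44_P1161690, chr1:187385777-187385836, plus strand, first 30 bases: CACACACACACggttttaaacaagtggtag
Itgam A_43_P15993, chr1:187385032-187385565, plus strand: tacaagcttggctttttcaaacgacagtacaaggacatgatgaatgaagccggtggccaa
Itga2 A_44_P1091825, chr2:46964102-46964161, minus strand, first 30 bases: cagaagaaccagacagaaacgttgtattta
Itga2 A_64_P074968, chr2:46968694-46968753, minus strand: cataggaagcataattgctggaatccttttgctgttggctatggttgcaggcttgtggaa
Itga9 A_44_P1095198, chr8:123841482-123841541, plus strand, first 30 bases: ctgaatcacttgcactgtttaggagatgcc
Itgb8 A_44_P819719, chr6:146490398-146490457, minus strand, first 30 bases: tagcttctttatgaaggtctgtaaatttta
Itgb8 A_64_P055684, chr6:146494978-146495037, minus strand: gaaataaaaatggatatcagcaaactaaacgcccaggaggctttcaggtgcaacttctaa
Lamb1 A_43_P20039, chr6:49137599-49137933, plus strand: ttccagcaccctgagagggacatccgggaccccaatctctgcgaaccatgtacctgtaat
Lamb1 A_43_P18993, chr6:49178140-49179911, plus strand: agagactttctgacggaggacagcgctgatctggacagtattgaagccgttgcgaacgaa
Lamb1 A_64_P102668, chr6:49182887-49182946, plus strand, first 30 bases: gtgcgctcactccttaaggacataagtgag

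Most subunits were detected. Counting a gene as detected when 1 of its probes was detected on each of the 4 arrays of a group, or of both, 32 of the 37 genes were detected, and 5 were not. By probe, 41 of the 53 met this rule, against 26404 of 45598 over all rat probes. The share over all genes was not computed, and a gene with more probes has more chances to pass. The 15 integrin α chains detected were the collagen receptor chains Itga1, Itga2, Itga10 and Itga11, the laminin receptor chains Itga3 and Itga6, the fibronectin receptor chain Itga5, the RGD receptor chains Itga8 and Itgav, Itga4 and Itga9, the platelet chain Itga2b, and Itgad, Itgae and Itgam, which are known from leukocytes. The 7 β chains detected were Itgb1, the shared partner of most of these α chains, Itgb3, Itgb4, Itgb5, Itgb6, Itgb7 and Itgb8. The 10 laminin chains detected included the α chains Lama2, Lama3, Lama4 and Lama5, the β chains Lamb1, Lamb2 and Lamb3, and the γ chains Lamc1 and Lamc3.

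The 5 genes not detected were Itga7, Itgal, Itgax, Itgb2 and Lama1, each measured by 1 probe. Itgal, Itgax and Itgb2, the leukocyte chains, were not well above background on any of the 8 arrays. Itga7, the laminin receptor chain of muscle, was detected on non-irradiated replicate 1 and irradiated replicate 2 only, both at 4.11, against 1.63 to 3.18 on the other 6 arrays. Lama1, an α chain of early embryonic basement membranes, was detected on both arrays of replicate 2, at 3.82 and 4.31. With all 8 arrays required, 29 genes were detected, and with 1 array enough, 34 were.

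Itgam, which encodes the α chain of a macrophage integrin, was detected by only 1 of its probes. Probe A_44_P1161690, which holds the CA run, read 8.72, 7.15, 7.39 and 7.93 on non-irradiated replicates 1 to 4 and 8.47, 7.55, 8.04 and 8.25 on irradiated replicates 1 to 4. Probe A_43_P15993, which ends 271 bases before the end of that probe, was not well above background on any of the 8 arrays, at 1.57 to 2.74. A run of 5 CA or TG repeats was held by 155 of the 45598 probes, or 0.340%, and by 1 probe of the integrin and laminin genes. Of those 155 probes, 85.8% were detected on all 8 arrays, against 53.5% of all probes. Of 12 macrophage and leukocyte markers, 8 were tested, with a mean log2 signal of 6.24 to 7.08 on the non-irradiated arrays and 6.25 to 7.02 on the irradiated arrays, and Ptprc, Csf1r, Adgre1 and Cd163 were not detected. The partner chain Itgb2, measured by 1 probe, was not detected either, so no β2 integrin had both chains detected.

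**Figure D1:**
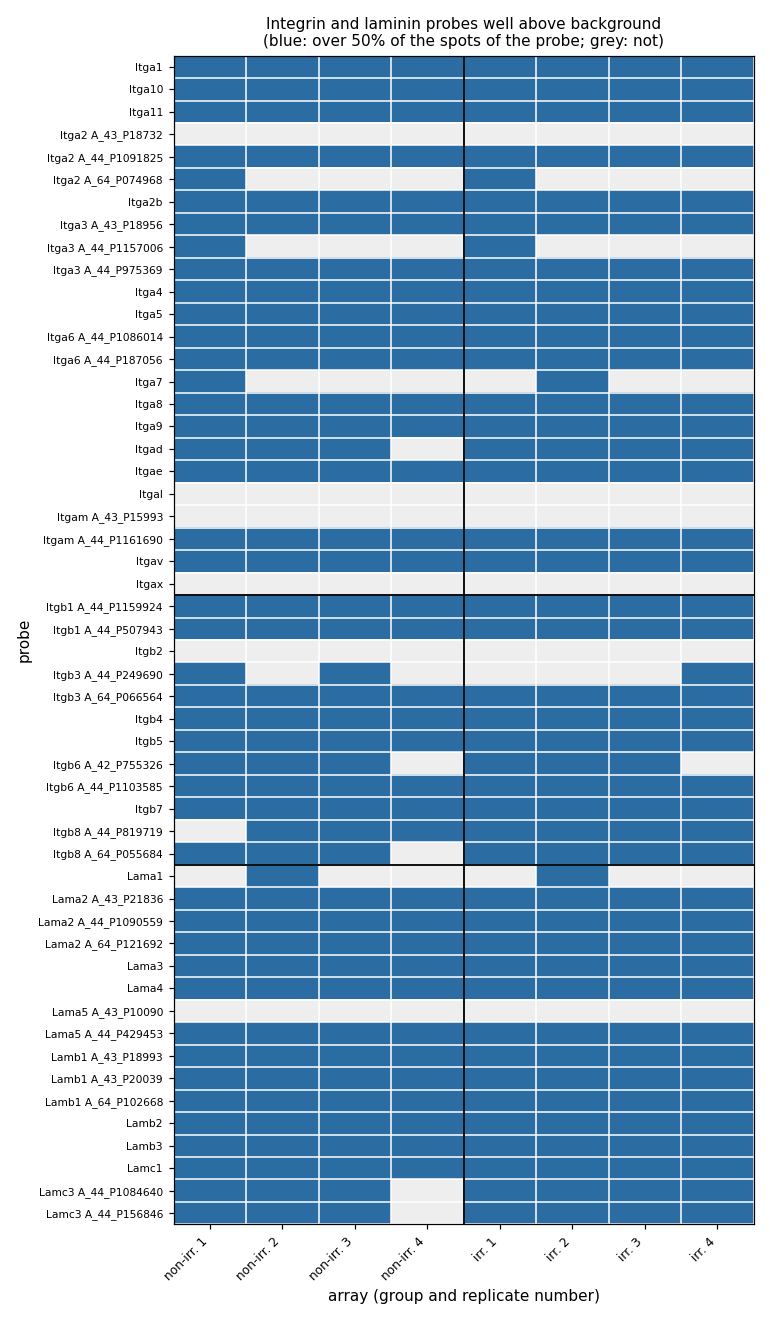
Each row is 1 of 52 probes and each column 1 of the 8 arrays, and blue marks a probe detected on that array. Integrin α, integrin β and laminin probes are separated by lines, and 35 probes are blue on all 8 arrays.

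Known integrin pairs and laminin trimers were counted by their chains. Both chains were detected for 19 of 24 known integrin pairs, including 11 of 12 pairs with Itgb1 and all 5 pairs with Itgav. The 5 pairs that lacked a detected chain were Itga7 with Itgb1 and the 4 pairs with Itgb2. All 3 chains were detected for 13 of 15 known laminins, and the 2 exceptions, laminin-111 and laminin-121, both need Lama1. These counts concern transcripts of a mixed culture and do not show that the chains are made by the same cell. Some of the chains counted read near the lowest signal called well above background, which was 3.29 to 4.04 over the arrays. Itgb6 read 4.29 to 5.34, Itgb7 4.44 to 5.17, Lama3 4.39 to 5.24 and Lamb3 4.02 to 6.08, against a mean of 17.30 for Itgb1.

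No subunit passed the test for a difference between irradiated and non-irradiated cells 6 h after exposure. Of the 53 probes, 41 were tested, having been detected on each array of a group, and none of the 41 had a fold change over 2 with an adjusted p below 0.1 (limma, replicate number as a block, Benjamini-Hochberg over all 26400 probes fitted). The background for that call was 0.0% of all probes. At an unadjusted p below 0.05, 1 of 41 member probes was called, or 2.44%, against 2.54% of all probes. The median log2 difference, irradiated minus non-irradiated, was -0.02 over the members and -0.0034 over all probes, with 20 members higher and 21 lower. The smallest adjusted p among the members was 1.00, which was also the smallest of all probes.

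The precision allows a bound on these differences for each probe taken alone. For 40 of the 41 probes the 95% confidence interval of the difference lay inside a 2-fold change in either direction, and the median half-width was 0.42 on the log2 scale. The exception was Lamb3, whose interval reached from -1.29 to 0.40. Irradiated and non-irradiated arrays overlapped for all 41 probes, and they did not overlap for 0.579% of all probes. The intervals do not cover slide column, which goes with irradiation, or the choice of background correction. For Lamb1 A_43_P20039, a probe of low signal, the difference was 0.46 in the main fit and 0.23 with normexp background correction.

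By family, of 17 integrin α probes, 9 were higher and 8 lower after irradiation, with a median of 0.04 and a range from -0.23 for Itga9 to 0.35 for Itga3. Of 9 integrin β probes, 5 were higher and 4 lower, with a median of 0.0047, from -0.22 for Itgb3 to 0.30 for Itgb8. Of 15 laminin probes, 6 were higher and 9 lower, with a median of -0.08, from -0.44 for Lamb3 to 0.46 for Lamb1.

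**Figure D2:**
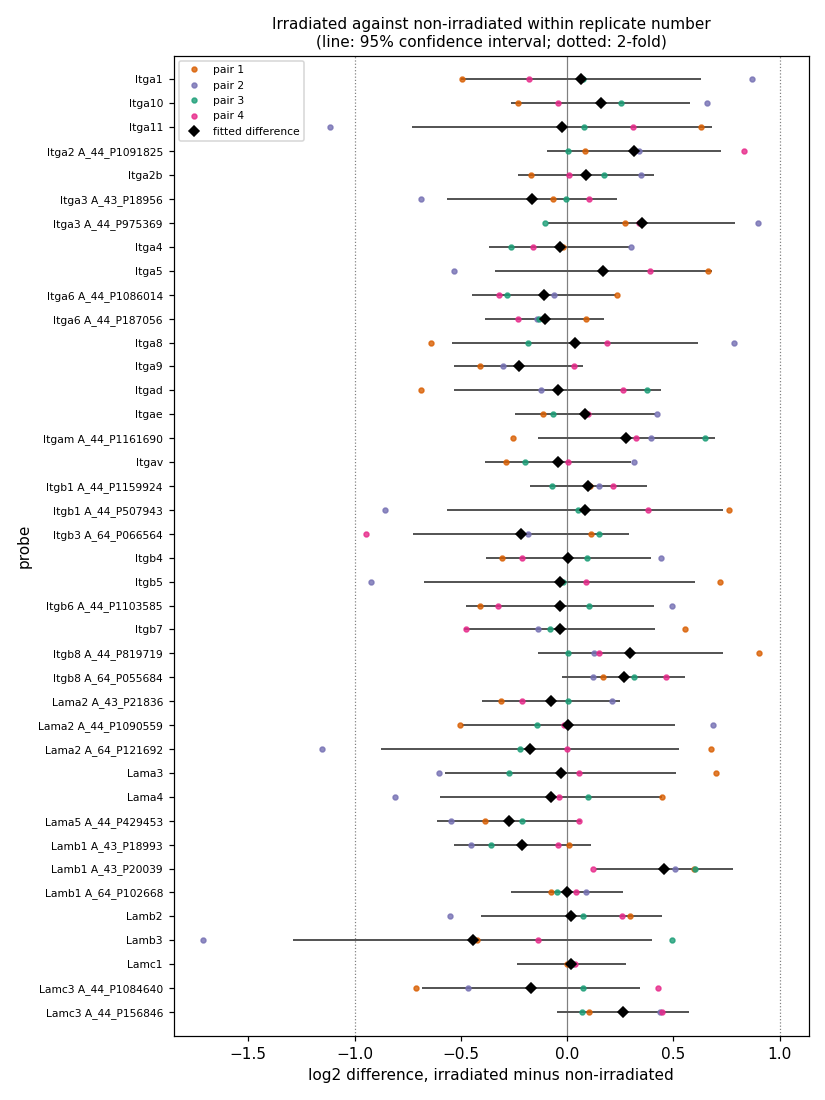
Each row is 1 of 40 tested probes, and the axis is the log2 difference of irradiated minus non-irradiated cells. Diamonds are the fitted differences with 95% confidence intervals as lines, coloured points are the 4 pairs of the same replicate number, and the interval of 1 probe, Lamb1 A_43_P20039, leaves out 0.

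The probe with an unadjusted p below 0.05 was Lamb1 A_43_P20039, where Lamb1 encodes the β chain of several laminins. It read 6.01, 5.55, 5.50 and 5.58 on non-irradiated replicates 1 to 4 and 6.60, 6.06, 6.10 and 5.71 on irradiated replicates 1 to 4. The irradiated array was the higher of each pair, but non-irradiated replicate 1 lay above irradiated replicate 4, so the groups overlapped. The log2 difference was 0.46 with an SE of 0.13 (n = 4 pairs), the limma unadjusted p was 0.0131 and the adjusted p was 1.00. The unadjusted p was 0.0673 without replicate 3 and 0.0596 without the block. At that threshold and in that direction, 1.42% of all probes were called.

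The other probes of Lamb1 did not show this difference. Probe A_43_P18993 read 7.67, 7.44, 7.17 and 7.38 on non-irradiated and 7.68, 6.99, 6.81 and 7.34 on irradiated replicates 1 to 4, a difference of -0.21 with an SE of 0.13. Probe A_64_P102668, which is spotted 10 times, read 14.32, 13.55, 13.36 and 13.37 on non-irradiated and 14.25, 13.64, 13.31 and 13.41 on irradiated replicates 1 to 4, a difference of 0.0007 with an SE of 0.11. The mean of the 2 arrays was highest in replicate 1 on both probes. The arrays of a pair lay within 0.09 of each other on A_64_P102668, but up to 0.45 apart on A_43_P18993. On rn4, A_43_P20039 ends 45013 bases and A_43_P18993 ends 3035 bases before A_64_P102668, so the probe that differed lies farthest from the 3′ end.

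Itgb8, the β chain of a TGF-β-activating integrin, was tested on both of its probes only because all 4 irradiated arrays were well above background, against 3 of the non-irradiated ones, so a direction toward irradiated cells is partly set by that filter. A_64_P055684 read 4.21, 5.35, 5.07 and 4.03 on non-irradiated and 4.38, 5.47, 5.39 and 4.49 on irradiated replicates 1 to 4, a difference of 0.27 with an SE of 0.12 (limma unadjusted p = 0.0645). A_44_P819719 read 3.64, 6.31, 6.57 and 5.73 on non-irradiated and 4.54, 6.44, 6.58 and 5.88 on irradiated replicates 1 to 4, a difference of 0.30 with an SE of 0.18 (limma unadjusted p = 0.147). The groups overlapped on both probes, neither passed the test, and the spread between replicate numbers was far wider than that between the arrays of a pair. Non-irradiated replicate 4 on the first probe and non-irradiated replicate 1 on the second were not well above background.

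Lamc3, a γ chain of less common laminins, was measured by a pair of probes whose differences had opposite signs. A_44_P156846 read 4.90, 5.21, 4.57 and 4.19 on non-irradiated and 5.01, 5.64, 4.64 and 4.64 on irradiated replicates 1 to 4, a difference of 0.26 with an SE of 0.13 (limma unadjusted p = 0.0838). A_44_P1084640 read 4.63, 3.88, 4.36 and 3.96 on non-irradiated and 3.92, 3.42, 4.43 and 4.39 on irradiated replicates 1 to 4, a difference of -0.17 with an SE of 0.21. Neither passed the test. On both probes non-irradiated replicate 4 was not well above background, so that they too entered the test only through the irradiated group.

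Among the receptor chains, Itga3 and Itga2 had the next smallest p-values on the higher side. Itga3 A_44_P975369 read 5.14, 4.62, 5.09 and 5.67 on non-irradiated and 5.42, 5.52, 4.98 and 6.01 on irradiated replicates 1 to 4, a difference of 0.35 with an SE of 0.18 (limma unadjusted p = 0.0981). Its second tested probe, A_43_P18956, gave -0.16 with an SE of 0.16. The groups overlapped, and the probes of Itga3 did not share a direction. Itga2, the collagen receptor chain, had a difference of 0.31 with an SE of 0.17 (limma unadjusted p = 0.110), and its arrays lay apart mainly by replicate number.

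On the lower side, Lama5, Itga9, Lamb1 A_43_P18993 and Lamb3 were among the probes with the smallest p-values. Lama5, the α chain found in most adult basement membranes, read 5.95, 5.18, 5.33 and 4.72 on non-irradiated and 5.56, 4.64, 5.12 and 4.77 on irradiated replicates 1 to 4. Its difference was -0.27 with an SE of 0.14 (limma unadjusted p = 0.0975), and it was lower in all pairs but the fourth. The groups overlapped, and the second Lama5 probe was not well above background on any of the 8 arrays.

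Lamb3, a laminin β chain of epithelia, had unequal differences over the pairs. It read 4.69, 6.08, 4.02 and 4.21 on non-irradiated and 4.27, 4.37, 4.51 and 4.07 on irradiated replicates 1 to 4, with non-irradiated replicate 2 above all others. Its difference was -0.44 with an SE of 0.34 (limma unadjusted p = 0.244) and lay between -0.76 and -0.02 as each replicate was left out. Lama3, an epithelial laminin α chain, had a difference of -0.03 with an SE of 0.22.

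Itgad, a leukocyte chain on chr1:187462990-187463537, was detected on all 4 irradiated arrays and on 3 of the non-irradiated arrays. It read 5.06, 4.80, 4.63 and 4.12 on non-irradiated and 4.37, 4.68, 5.00 and 4.39 on irradiated replicates 1 to 4. The groups overlapped widely, and the difference was -0.04 with an SE of 0.20. The array that missed the detection limit was non-irradiated replicate 4, as for Lamc3 and 1 of the Itgb8 probes, and the lowest signal called well above background was highest on that array, at 4.04 against 3.29 to 3.73 on the others.

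The pairs differed in how far apart their arrays lay. The median absolute difference of the member probes was 0.31, 0.45, 0.13 and 0.18 in pairs 1 to 4, and over all probes it was 0.25, 0.34, 0.14 and 0.14. In pair 2, the collagen receptor chain Itga1 went from 12.19 to 13.06 and Itga8 from 10.48 to 11.26, while Itga11 went from 10.14 to 9.02 and Itgb5 from 9.52 to 8.59. Irradiated replicate 2 lay nearer to non-irradiated replicate 1 than to its own partner for 20 of 41 member probes, or 48.8%, against 57.7% of all probes. Without replicate 2, 3 of 41 member probes had a limma unadjusted p below 0.05 (Lamb1 A_43_P20039, Itga5 and Itgb8 A_64_P055684), against 1411 of 26400 over all probes. Without replicate 1 there were also 3 (Lamb1 A_43_P20039 and Itgam among them), against 1077 of 26399 over all probes. The smallest limma adjusted p of a member in these fits was 0.868 and 0.907, in that order.

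The subunits were also compared between replicate numbers, where 4 genes, Itga2, Itga9, Itgb8 and Lama2, passed the test. The 4 replicate numbers were compared with the moderated F test of limma, which asks whether the pairs of arrays differ beyond the spread within pairs. Of the 41 member probes, 5 had an adjusted p below 0.05, or 12.2%, against 3.31% of all probes. At an unadjusted p below 0.05 there were 19 member probes, or 46.3%, against 25.5% of all probes. The mean square of the replicate numbers was above that of irradiation for 38 members, or 92.7%, against 86.4% of all probes.

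The count rests on few arrays. It was 0 without replicate 1, 17 without replicate 2, 0 without replicate 3 and 1, Itga2, without replicate 4, and over all probes the counts were 0, 5537, 111 and 104. The arrays of a number share an animal number in the deposited material and lay side by side on the slide, so animal, culture and position cannot be told apart.

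Itga2, which pairs with Itgb1 as a collagen receptor, had the smallest adjusted p. Probe A_44_P1091825 read 8.33, 6.02, 5.76 and 5.58 on non-irradiated and 8.41, 6.36, 5.76 and 6.41 on irradiated replicates 1 to 4. Both arrays of replicate 1 lay above the other 6, on average 5.24-fold, and the limma adjusted p between replicate numbers was 0.0157. The second probe, A_64_P074968, was detected on the same 2 arrays only, at 5.02 on non-irradiated and 4.97 on irradiated replicate 1, against 1.50 to 3.59 on the other 6. The third Itga2 probe, 38362 bases from the 3′-most one, was not well above background on any of the 8 arrays.

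Itga9, a receptor chain for tenascin and other ligands, was low in replicate 4. It read 9.09, 8.54, 8.71 and 6.98 on non-irradiated and 8.68, 8.24, 8.48 and 7.01 on irradiated replicates 1 to 4. Both arrays of replicate 4 lay below the other 6, on average 3.08-fold, with a limma adjusted p between replicate numbers of 0.0186. Between irradiated and non-irradiated cells, Itga9 differed by -0.23 with an SE of 0.12 (limma unadjusted p = 0.115) and was lower in 3 of 4 pairs.

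Itgb8 differed between replicate numbers on both probes. On A_44_P819719 both arrays of replicate 1 lay below the other 6, the non-irradiated one not well above background, and the limma adjusted p between replicate numbers was 0.0219. On A_64_P055684 replicates 1 and 4 were low and replicates 2 and 3 high, and the limma adjusted p was 0.0366. The probes lie 4580 bases apart on rn4, and replicate 4 was nearer to the high arrays on the first probe and to the low arrays on the second. Itgb8 was the only called member with replicate 1 low.

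Lama2, the laminin α chain of muscle and peripheral nerve, was measured by 3 tested probes, of which 1 was called. A_43_P21836 read 9.76, 8.70, 8.34 and 8.26 on non-irradiated and 9.45, 8.92, 8.34 and 8.05 on irradiated replicates 1 to 4, with a limma adjusted p between replicate numbers of 0.0419. A_44_P1090559 read 12.28 and 11.78 on the non-irradiated and irradiated arrays of replicate 1 and 10.86 to 11.73 on the other 6, with a limma adjusted p of 0.145. Both arrays of replicate 1 were the highest on these probes. On A_64_P121692 both arrays of replicate 4 were the highest instead, at 6.77 each against 5.06 to 6.32, and the limma adjusted p was 0.277. The probes of Lama2 therefore did not share an order of the replicate numbers, and they lie 159231, 0 and 5494 bases from the 3′-most probe.

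Below the threshold, Lamb1 and Lamc1, chains shared by several laminins, were both highest in replicate 1. Lamc1, spotted 10 times, read 14.93, 14.33, 14.28 and 14.03 on non-irradiated and 14.93, 14.35, 14.31 and 14.07 on irradiated replicates 1 to 4, with a limma adjusted p between replicate numbers of 0.0806. Its arrays of a pair differed by at most 0.04, and replicate 1 was 1.62-fold above the other numbers. Lamb1 A_64_P102668 had a limma adjusted p of 0.0608, with replicate 1 at 1.80-fold the others. Lamc3 A_44_P156846 had a limma adjusted p of 0.0831, with both arrays of replicate 2 the highest.

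**Figure D3:**
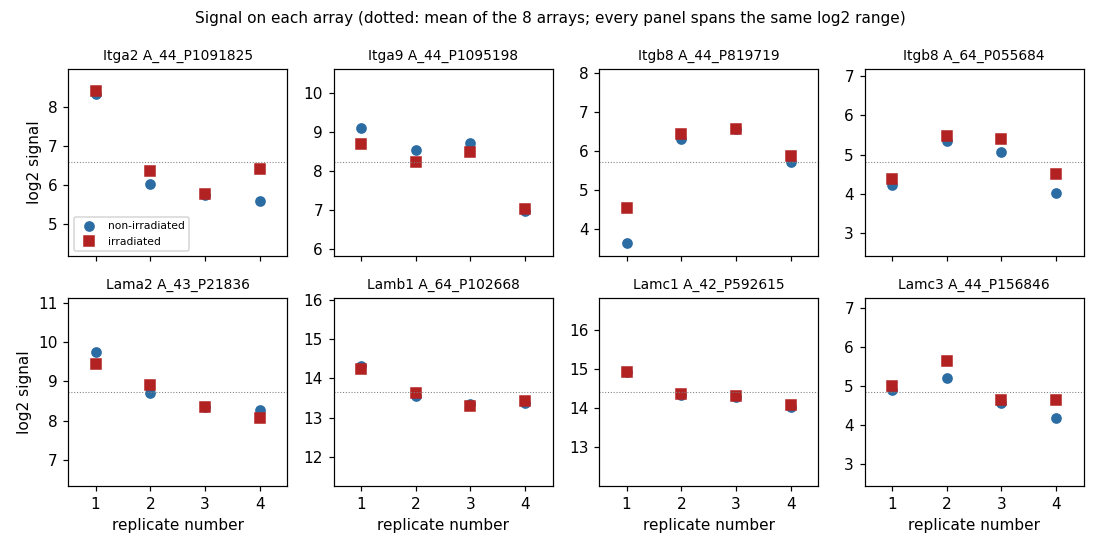
Each panel shows 1 of the 8 probes with the smallest adjusted p between replicate numbers, with the replicate number on the horizontal axis and log2 signal on the vertical axis. Circles are non-irradiated and squares irradiated arrays. In Itga2 both arrays of replicate 1 stand above the others, and in Itga9 both arrays of replicate 4 stand below them.

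Over all members, replicate 1 had both arrays above the other 6 for 13 of 41 probes, against 14.3% of all probes, and replicate 4 had both below for 9, against 14.1% of all probes. Besides those named, the 13 included Itgb1, the common β chain, at 17.62 and 17.72 in replicate 1 against 17.03 to 17.35, and Itgav, the RGD receptor chain, at 14.35 and 14.06 against 13.39 to 13.77. They also included Itga8 at 12.05 and 11.41 against 9.92 to 11.26, Itga4 at 5.79 and 5.77 against 4.64 to 5.22, Itgb3, Itgam and Lama5. None of these 7 genes passed the adjusted test, with limma adjusted p-values from 0.0859 for Itga4 to 0.180 for Itgb3. The second Itgb1 probe, A_44_P507943, had no such order, and its limma adjusted p was 0.824.

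**Figure D4:**
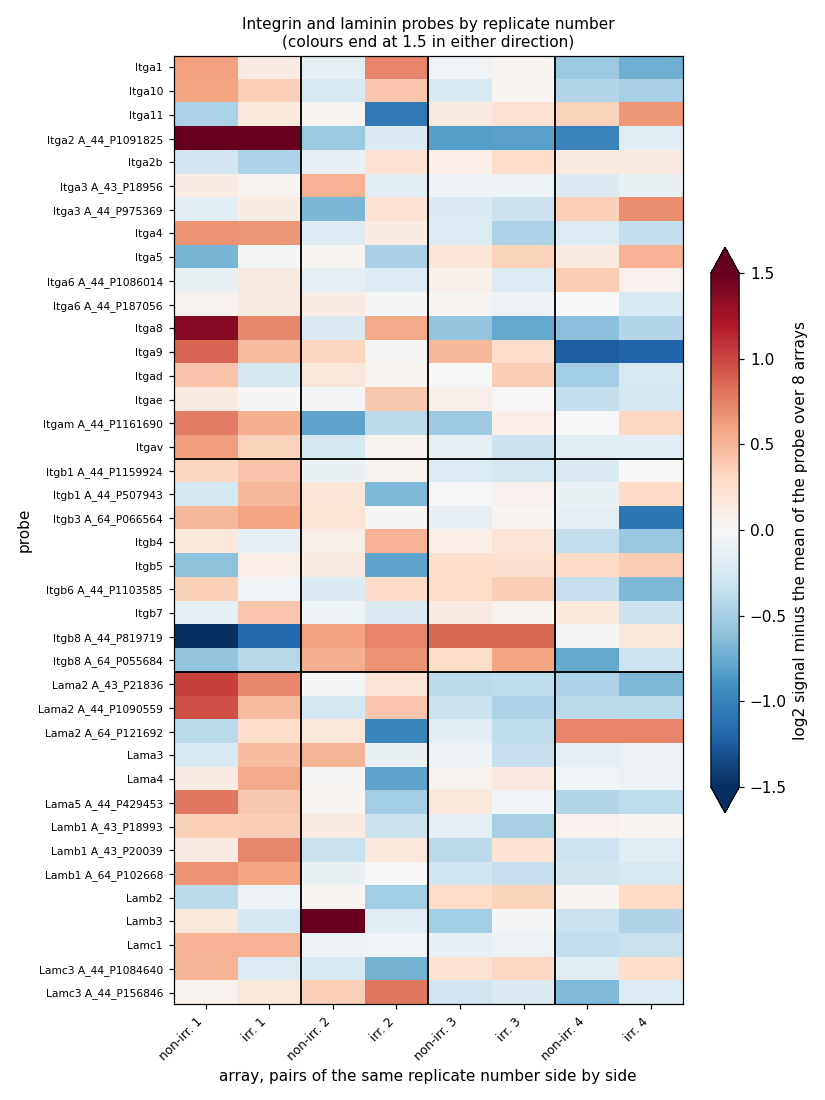
Each row is 1 of 40 tested probes and each column 1 array, with the arrays of a replicate number side by side, and the colour is the log2 signal minus the mean of the probe over the 8 arrays. Replicate 1 is red in both columns for Itga2, Itga4, Itga8, Lamb1, Lamc1 and the first and second Lama2 rows, and blue in both for Itgb8.

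Other measures also differed between replicate numbers, though the arrays of a pair were not always alike. The 8 skeletal muscle markers tested of 9 averaged 7.61 and 7.34 on the arrays of replicate 1 and 6.40 and 6.47 on those of replicate 4, and 1 of them, Myh3, was called, at 11.15 and 10.72 in replicate 1 and 6.44 and 6.61 in replicate 4. The 6 endothelial markers tested of 8 averaged 8.10 and 7.81 in replicate 1 and 7.07 and 7.03 in replicate 4, with Tie1 and Emcn not detected, and 2 of them, Kdr and Tek, were called. The macrophage and leukocyte markers averaged 7.08 and 7.02 in replicate 1 and 6.24 and 6.25 in replicate 4. The 11 osteoblast markers averaged 11.66 and 11.76 in replicate 1 and 11.04 and 10.97 in replicate 4, where Alpl and Bglap, both called, were lowest. Calls were also made for 1 of the 8 macrophage and leukocyte markers, 2 of 4 epithelial, 1 of 6 smooth muscle and pericyte, 2 of 6 Schwann and glia, 0 of 6 fibroblast and 0 of 2 T cell markers tested, and 3.31% of all probes were called. None of the 6 platelet markers was detected, although the platelet chain Itga2b was, at 4.78 to 5.51 over the 8 arrays. Probes far from the 3′ end, relative to 3′ probes of the same 2960 genes, read -0.16, 0.07, 0.03 and 0.15 on non-irradiated and -0.07, -0.08, 0.04 and 0.07 on irradiated replicates 1 to 4, with opposite signs in pair 2. The part of these measures in the differences between replicate numbers was not tested.

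Genes that work with integrins and laminins were compared with irradiation in the same fit, in which 2.54% of all probes had an unadjusted p below 0.05. Of 32 focal adhesion genes, which link integrins to actin, 30 were tested, 0 were higher and 1 was lower at an unadjusted p below 0.05, with a median log2 difference of -0.03. The 1 was Ptk2b, a focal adhesion kinase relative, at 7.35, 6.85, 6.85 and 7.35 on non-irradiated and 6.95, 6.67, 6.48 and 7.06 on irradiated replicates 1 to 4, a difference of -0.31 with an SE of 0.11 (limma unadjusted p = 0.0315, adjusted p 1.00). The groups overlapped. Of 20 other basement membrane genes 16 were tested, of 6 other laminin receptors 5, of 18 integrin ligands 17 and of 5 tetraspanins 5, and 0 had an unadjusted p below 0.05, with medians of -0.04, 0.0058, -0.0042 and -0.09. Parvb, an adaptor at focal adhesions, differed by -0.19, the basement membrane genes Frem2 and Fbln1 by -0.28 and -0.20, the ligands Thbs1 and Fbn1 by -0.17 and -0.25, the syndecans Sdc1 and Sdc4 by 0.09 and -0.11, and the tetraspanins Cd151 and Cd82 by -0.11 and -0.13.

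In these lists each gene was represented by its probe with the highest mean signal, while the shares of all probes cover every probe tested. The sets compared are thus unlike. Between replicate numbers, 5 of the 73 genes tested in these lists, or 6.85%, had a limma adjusted p below 0.05, against 3.31% of all probes. They were Cav1, the caveolar coat protein, Col4a1 and Col18a1, which encode basement membrane collagens, Postn, an integrin ligand of periosteum, and Cdh1, the epithelial cadherin that binds the Itgae and Itgb7 pair. Col4a1 read 16.06, 14.41, 14.07 and 14.18 on non-irradiated and 15.98, 14.53, 14.07 and 14.28 on irradiated replicates 1 to 4. Cav1, Col4a1, Col18a1 and Postn were highest in replicate 1, and Cdh1 was lowest there. At an unadjusted p below 0.05 there were 33 of 73, or 45.2%, against 25.5% of all probes, made up of 11 of 30 focal adhesion genes, 11 of 16 basement membrane genes, 2 of 5 other laminin receptors, 8 of 17 integrin ligands and 1 of 5 tetraspanins. Without replicate 1, 3 or 4 none of the genes of these lists had an adjusted p below 0.05 (limma), and without replicate 2 there were 26.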

How the data were processed

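Total RNA of 8 osteoblast-like cell cultures, 4 non-irradiated and 4 irradiated, was measured on 1-colour arrays. The authors deposited spot intensity values from Agilent Feature Extraction 11.0.1.1, with 62976 spots per array, after subtraction of background and of spatial trends but before any normalization between arrays. They also deposited log2 values of 24029 rows, quantile normalized, which were used only as an alternative. Gene names and rn4 positions are those of the array.

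Processed signals of rat probes were quantile normalized and transformed to log2, outlying spots (446 to 690 per array) were left out, and spots of a probe were averaged. A probe was tested when over 50% of its spots were well above background on each of the 4 arrays of one group or of both (26404 probes, 26400 of them fitted; 26373 in the comparison of replicate numbers, and 26250 where a value on all 8 arrays was needed). The fit used limma 3.58.1 in R 4.3.3 with group and replicate number as terms, two-sided tests and Benjamini-Hochberg adjustment over all probes. It was tested on simulated data. The number of arrays limits the precision. With the block, p-values rest on the spread of the differences within the pairs of these cultures, moderated over all probes.

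The replicate number was a block because scanner file names give both arrays of a number the same animal number. Deviations from the group means correlated within numbers 1 to 4 at 0.608, 0.0542, 0.571 and 0.749. All arrays were on 1 slide, so the slide was not a block.

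A gene is represented by the probe with the highest mean signal, and others are given where their sign or call differs. Counts of listed genes and markers thus rest on 1 probe each, while those over all probes cover every probe tested. Values on every array are given for the 5 probes with the smallest p for irradiation in each direction, for probes whose groups did not overlap, for the 8 with the smallest adjusted p between replicate numbers and for those detected on all 4 arrays of 1 group only. The values of 1 of these probes are not reported here. From each other list the 2 genes with the smallest p were taken. Itga1, Itga7, Itga8, Itga11, Itgam, Itgb1, Itgb5, Lama1 and the other probes of named genes were added after their values were seen. The members and lists were chosen with earlier results of these data known, and the alternatives are given in the closing section.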

Additional observations from a re-analysis of the deposited data

Results flagged for a closer look

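In each group of 4 arrays, the gap between the highest or lowest array and its nearest neighbour was set against the whole range of the group. Of 82 groups (41 probes in each of 2 treatments), 7 had an array apart by Dixon's test, or 8.54%, where the nominal rate for independent groups is about 5%. The share over all probes was not computed, and probes on the same array are not independent, so this count is a description only. All 7 were non-irradiated groups. In 6 of them the array apart was replicate 1. Itga2 A_44_P1091825 read 8.33 there, above 5.58 to 6.02 on the other non-irradiated arrays, and its irradiated partner read 8.41. Itga4 A_64_P074998 read 5.79, above 4.90 to 4.91, with a partner at 5.77. Itgav A_43_P14573 read 14.35, above 13.46 to 13.59, with a partner at 14.06. Lama2 A_44_P1090559 read 12.28, above 10.92 to 11.05, with a partner at 11.78. Lamb1 A_43_P20039 read 6.01, above 5.50 to 5.58, with a partner at 6.60. Itga5 A_42_P783301 was the other way round, at 8.73, below 9.46 to 9.60, with a partner at 9.39. The seventh was Itgb4 A_64_P055738, the β chain of the hemidesmosome integrin, at 6.79 on non-irradiated replicate 4, below 7.23 to 7.30, with a partner at 6.58.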

How the results depend on the processing

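With irradiation, no probe reached an adjusted p below 0.1 and a fold over 2 under any alternative run. The count of member probes at an unadjusted p below 0.05, 1 at first, was 2 with no filter on dim probes, 2 by the methods' t-test on pairs, 0 on the deposited log2 values, where the Lamb1 probe called at first has no row, 0 without the replicate block, and 1 to 3 as each replicate was left out. Over all probes, 670 at first, it was 253 with normexp, 1658 with no filter, 292 on the deposited values, 246 without the replicate block, 384 with trend and robust estimation, and 392 to 1411 as each replicate was left out. The median member difference, -0.02 at first, was 0.017 when scaled to the 75th percentile, 0.00012 with normexp, 0.010 on the deposited values, and -0.0127 to 0.0128 as each replicate was left out, so its sign is not settled. Between replicate numbers, the 5 member calls became 0 with no filter, 8 on the deposited values, 4 of them shared, and 0 to 17 as each replicate was left out, and the 872 calls over all probes became 1534 with normexp, 84 with no filter, 1733 on the deposited values, 1407 with trend and robust estimation, and 0 to 5537 as each replicate was left out. The 5 calls in the adhesion lists became 8 when scaled to the 75th percentile, 12 with normexp, 0 with no filter, 11 on the deposited values, 13 with trend and robust estimation, and 0 to 26 as each replicate was left out. All alternatives for these lists, and those for integrin pairs and laminins, were chosen after seeing the data. Counts of genes detected (29 to 34), integrin pairs (18 to 20) and laminins (10 to 15) stayed within 1.5 times. A named probe's difference under an alternative counted as the same with an equal sign where both unadjusted p-values were below 0.05. Where neither was, it needed a value within the spread of the pairs. Of these differences, 192 were the same, 3 gained and 2 lost an unadjusted p below 0.05, and 2 moved further. The cause was not tested. The block changed no adjusted call for irradiation. Where a signal is near background, as for Itgad, Itgb8 and Lamc3, detection limits the values.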
